A study of Mus musculus with 3 samples.

Results

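The autophagy machinery genes described here are the 37 genes that encode the core proteins of macroautophagy, from the kinase that starts it to the receptors that carry cargo into it, together with 1 transcription factor of the pathway. They were chosen by name, with earlier results of these data known, and found by gene symbol among 55536 gene entries. Of these entries 22028 are annotated as protein-coding. PolyA-selected RNA was sequenced from naive CD4 T cells, helper T cells that have not yet met their antigen, taken from a male mouse of the strain B6.SJL-Ptprca Pepcb/BoyJ at 5 months of age. The strain name gives the alleles Ptprca (the CD45.1 form of CD45) and Pepcb, and the labels name no treatment and no other allele. How the cells were purified is not given in the sources used here. The data are 3 technical libraries of 1 biological replicate, so an SD below is the spread between libraries of the same cells (n = 3), and no condition or second animal can be compared.

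Macroautophagy encloses cytoplasm in a double membrane and delivers it to the lysosome. The ULK1 kinase complex starts it, a class III phosphatidylinositol 3-kinase complex marks the membrane with the lipid PI3P, and ATG2, ATG9 and WIPI proteins supply lipid and read the mark. A ubiquitin-like conjugation system then attaches proteins of the ATG8 family (the LC3 and GABARAP proteins) to the membrane, where receptors that hold cargo bind them. In T cells the pathway is known for the survival of naive and memory cells and for the removal of mitochondria and endoplasmic reticulum after exit from the thymus.

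Levels are given in TPM, the deposited transcript abundance scaled for length and library size, so levels of different genes can be set side by side. Totals of expected counts, the authors' estimated reads per gene, were 14837441.6, 18207118.1 and 17505621.0 in libraries 1, 2 and 3. Library 2 stood apart: ribosomal RNA genes held 1.08% of its TPM against 0.299% and 0.262% in libraries 1 and 3, and ribosomal protein genes 10.2% against 7.22% and 6.88%. The labelled cell type was checked with marker lists. All 8 naive CD4 T cell markers were above 1 TPM in every library, led by Ccr7 at 2631.6 TPM and Trac at 2475.1 TPM, with Cd4 at 444 TPM. The summed level of 6 B cell markers was 2.11 to 3.13 TPM with Cd79a leading at 2.06 TPM and Cd79b next at 0.277 TPM. That of 7 myeloid markers was 2.77 to 3.55 TPM, led by Itgam at 1.63 TPM and Cd68 at 1.01 TPM. That of 4 natural killer cell markers was 0.24 to 2.10 TPM (Tyrobp 0.493, Gzma 0.233 TPM), and that of 4 erythroid markers was 1.2 to 1.77 TPM (Hbb-bs 1.18, Hba-a1 0.25 TPM). The 4 effector T cell markers summed to 5.44 to 5.94 TPM, most of it Prdm1 at 4.79 TPM, before Gzmb at 0.327 TPM. Of 3 CD8 T cell markers, Cd8b1 stood at 17.0 TPM, Gzmk at 0.160 TPM and Cd8a at 0.140 TPM. In a bulk sample, fewer cells of a type and less RNA per cell cannot be told apart.

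The 5 ATG8 proteins are made as precursors that ATG4 proteases cut after a glycine near the C-terminus, and that glycine is then joined to phosphatidylethanolamine. The ends of their coding sequences are shown because the comparison of paralogs turns on this family and because Gabarap-202, the most abundant isoform of Gabarap, lacks the common end. The sequences were read from the GENCODE M21 transcripts (assembly GRCm38, coding strand), and capitals mark the last in-frame glycine codon before the stop codon.
Map1lc3a-201: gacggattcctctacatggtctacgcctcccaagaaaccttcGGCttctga
Map1lc3b-201: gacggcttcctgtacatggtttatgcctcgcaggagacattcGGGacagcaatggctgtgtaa
Gabarap-201: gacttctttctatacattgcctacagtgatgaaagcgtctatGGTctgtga
Gabarapl1-201: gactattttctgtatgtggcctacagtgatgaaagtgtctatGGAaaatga
Gabarapl2-201: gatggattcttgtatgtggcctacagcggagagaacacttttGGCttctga
Gabarap-202: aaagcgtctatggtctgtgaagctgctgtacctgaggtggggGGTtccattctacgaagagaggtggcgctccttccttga

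In Map1lc3a-201, Gabarap-201, Gabarapl1-201 and Gabarapl2-201 the glycine codon was followed by 1 further codon before the stop, and in Map1lc3b-201 by 5. Gabarap-202, with 106 codons against 117 in Gabarap-201, has another annotated end, with 11 codons after its last glycine. The last 18 coding bases of Gabarap-201 also occur in Gabarap-202, but shifted by 2 bases from that transcript's reading frame. Coding sequences of the transcripts listed first for each gene were 76.5% identical between Map1lc3a and Map1lc3b and 74.9% between Gabarap and Gabarapl1, the highest of the 10 pairs of the family, and 53.4% between Map1lc3a and Gabarapl1, the lowest. The longest run of bases shared by any pair of these 5 coding sequences was 17, between Gabarap and Gabarapl1, so no stretch of 50 bases was common to them.

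Of the 37 genes, 33 (89.2%) were detected, meaning at least 1 TPM in every library, against 44.6% of all protein-coding genes. Their median level over all 37 genes was 56.8 TPM (SD of the library medians 5.49, n = 3), beside 0.357 TPM over all protein-coding genes and 31.4 TPM over the 9823 detected ones. The level was 10 TPM or more in every library for 32 genes, and 100 TPM or more in every library for 7, a level that 7.59% of protein-coding genes reached. Only Wipi1 and Atg9b were under 1 TPM in every library, while Atg4c and Optn lay on both sides of 1 TPM. Summed over the 37 genes the level was 3412.7 ± 103 TPM (SD, n = 3), of which the 5 ATG8 genes gave 28.1% and the 3 cargo receptors 24.4%.

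**Figure D1:**
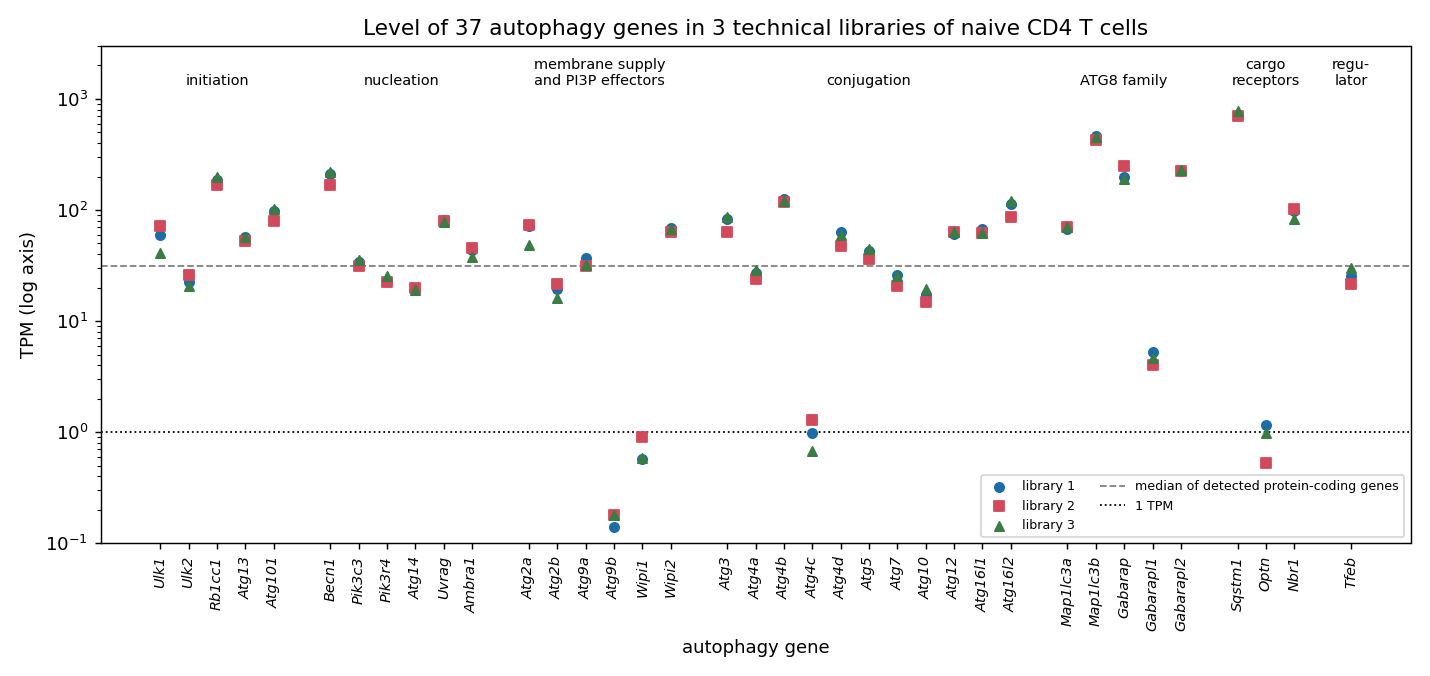
TPM (log axis) of each of the 37 genes in libraries 1, 2 and 3, ordered by step, with the median of detected protein-coding genes (31.4 TPM, dashed) and 1 TPM (dotted). Sqstm1 and Map1lc3b stand highest, and Atg9b, Wipi1, Atg4c and Optn lie around or under 1 TPM.

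The initiation complex was detected in full, with a median of 57.5 TPM over its 5 genes. Rb1cc1 (chromosome 1, 6206197 to 6276648), the scaffold FIP200, was its most abundant member at 186, 167 and 200 TPM. Atg101, the subunit that steadies ATG13, followed at 97.9, 80.3 and 103 TPM, and Atg13, the adaptor, at 57.7, 53.2 and 56.9 TPM. Of the kinases, Ulk1 (chromosome 5, 110784488 to 110810097) was at 59.6, 71.8 and 41.1 TPM and Ulk2 at 22.3, 26.1 and 20.8 TPM. Every library of Ulk1 was above every library of Ulk2, by 1.29 ± 0.26 on the log2 scale of TPM + 0.1 (SD, n = 3), and Ulk1 made up 70.9% of the 2 kinases' summed TPM. The ratio pooled over libraries was 2.50, with an exact Clopper-Pearson 95% interval of 2.40 to 2.61. Atg13 and Ulk1 could not be ordered, since the values of Ulk1 spanned those of Atg13.

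The lipid kinase complex was also detected in full, with a median of 37.8 TPM over 6 genes. Becn1 (chromosome 11, 101285952 to 101302286), the regulatory subunit Beclin 1, was at 210, 167 and 222 TPM. By gene level this was far above the catalytic subunit gene Pik3c3 (VPS34) at 34.2, 31.1 and 35.2 TPM. Its partner Pik3r4 (VPS15) was at 23.2, 22.7 and 25.3 TPM. Coding transcripts held 11.3% of the TPM of Becn1 and 75.9% of that of Pik3c3, so this order did not hold over coding transcripts. In library 2 the coding shares were 6.02% and 76.9%, which put Becn1 below Pik3c3. In libraries 1 and 3 Becn1 was above it. Atg14 and Uvrag encode the alternative subunits that direct the complex to autophagosomes and to endosomes. Atg14 was at 19.0, 19.8 and 18.9 TPM and Uvrag at 82.2, 80.1 and 78.8 TPM. The libraries did not overlap: by gene level Uvrag was higher by a pooled ratio of 4.20 (3.98 to 4.43). Coding transcripts held 17% of the TPM of Uvrag and 94.9% of that of Atg14, and over them Uvrag was not the higher. The coding Atg14-201 was at 17.2 ± 1.34 TPM and Uvrag-201 at 13.6 ± 3.73 TPM (SD, n = 3), with overlap between their libraries. Within each library Atg14-201 (17.9, 15.7 and 18 TPM) was above Uvrag-201 (11.7, 11.2 and 17.9 TPM). Atg14-204, also coding, was at 0, 3.09 and 0 TPM and is not in this comparison. Ambra1, which brings Beclin 1 to the ULK1 complex, lay between the gene levels of Atg14 and Uvrag at 43.3, 45.5 and 37.6 TPM.

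Among the genes for membrane supply and PI3P effectors, 1 paralog of each pair carried most of the level. Atg2a and Atg2b encode lipid transfer proteins: Atg2a was at 71.5, 73.8 and 48.7 TPM and Atg2b at 19.3, 21.7 and 16.2 TPM, a pooled ratio of 3.39 (3.26 to 3.52). Atg9a, the lipid scramblase of the seed vesicles, was at 37, 31.1 and 32.1 TPM and its paralog Atg9b at 0.140, 0.180 and 0.180 TPM, with 16 expected counts in all. The pooled ratio was 201 (123 to 352). Of the PI3P binding proteins, Wipi2, which recruits ATG16L1, was at 69.6, 63.0 and 67.0 TPM and Wipi1 at 0.580, 0.900 and 0.590 TPM. Wipi2 was 93.1 times higher (69.7 to 127). Thus Atg9a held 99.5% and Wipi2 99.0% of the TPM of their pairs, and Atg2a 77.0%.

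The conjugation genes had a median of 56.8 TPM, with 10 of 11 detected. Atg7, the E1 enzyme that activates both ubiquitin-like proteins, was at 26, 20.7 and 25.5 TPM. Of the E2 enzymes, Atg3, which acts on ATG8 proteins, was at 82.7, 63.4 and 86.4 TPM and Atg10, which acts on ATG12, at 17.2, 15.0 and 19.3 TPM, a pooled ratio of 4.50 (4.12 to 4.92). Atg12 was at 61.2, 63.3 and 63.0 TPM and Atg5, to which ATG12 is joined, at 42.4, 36.1 and 44.4 TPM. Atg16l1, which brings the ATG12 and ATG5 conjugate to the membrane, was at 68.2, 62.3 and 62.4 TPM. Its paralog Atg16l2, whose role in autophagy is less established, was at 113, 87.4 and 121 TPM. The libraries of these paralogs did not overlap: Atg16l2 was higher by a pooled ratio of 1.65 (1.58 to 1.72). Transcripts annotated as coding held 22.2% of the TPM of Atg16l2 and 59.9% of that of Atg16l1, so over coding transcripts Atg16l1 was the higher.

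The 4 ATG4 proteases cut the ATG8 precursors and release ATG8 proteins from lipid. Atg4b, the most active of them on LC3, was at 127, 117 and 120 TPM. Atg4d was at 63.0, 47.8 and 59.5 TPM and Atg4a, known for GABARAP precursors, at 27.4, 24.2 and 28.6 TPM, while Atg4c was at 0.980, 1.28 and 0.680 TPM. The order Atg4b, Atg4d, Atg4a, Atg4c of gene levels held in every library with no overlap between neighbours. Over transcripts annotated as coding Atg4a was above Atg4d. Atg4a-201 was at 17.4, 15.2 and 16.4 TPM and Atg4d-201 at 5.12, 5.37 and 5.15 TPM. Atg4b gave 59.0 ± 2.08% (SD, n = 3) of the family's TPM, Atg4d 27.5%, Atg4a 13.0% and Atg4c 0.483%.

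The ATG8 family had the highest median of the steps with several genes, 213 TPM. Map1lc3b (LC3B; chromosome 8, 121590361 to 121598760) was at 462, 425 and 453 TPM, and Gabarapl2 (GATE-16; chromosome 8, 111940703 to 111953612) at 223, 226 and 228 TPM. Gabarap (chromosome 11, 69991143 to 69994951) was at 197, 249 and 192 TPM, with library 2 highest. Gabarap and Gabarapl2 overlapped, the only 1 of the 21 paralog pairs to do so, and their log2 ratio was -0.10 ± 0.21 (SD, n = 3). Map1lc3a (LC3A; chromosome 2, 155276297 to 155278073) was at 67.1, 70.6 and 70.8 TPM and Gabarapl1 (chromosome 6, 129533160 to 129542346) at 5.3, 4 and 4.7 TPM, both below every library of the other three. Map1lc3b gave 46.6% of the family's TPM, Gabarapl2 23.5%, Gabarap 22.1%, Map1lc3a 7.25% and Gabarapl1 0.487%. The 2 LC3 genes together were at 516 ± 18.2 TPM and the 3 GABARAP genes at 443 ± 31.4 TPM (SD, n = 3), with every library of the first sum above every library of the second.

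The cargo receptors ranged from 0.893 to 735 TPM in the mean. Sqstm1 (p62; chromosome 11, 50199366 to 50210827), a receptor for ubiquitinated cargo, was the most abundant member at 722, 703 and 781 TPM, above 99.3% of protein-coding genes. Nbr1, a related receptor that acts with p62, was at 98.8, 102 and 83.5 TPM, and Sqstm1 was higher by a pooled ratio of 7.83 (7.64 to 8.02). Their log2 ratio was 2.96 on TPM and 0.64 on the whole-number counts that the authors deposited for an older annotation. Optn (optineurin), a receptor in the removal of mitochondria and bacteria, was at 1.16, 0.530 and 0.990 TPM on 53 expected counts in all. Sqstm1 was 838 times higher than Optn (640 to 1118.7). Tfeb, a transcription factor that drives lysosome and autophagy genes, was at 25.4, 21.6 and 30 TPM.

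Across the 26 pairs compared, 25 did not overlap between the 3 libraries of 1 gene and the 3 of the other. Among the 21 paralog pairs these were 20, with a ratio over 2-fold in 18 and over 10-fold in 9. The libraries are of the same cells, so genes of unlike level can readily fail to overlap. The share over pairs of other genes was not computed, so the count does not set these pairs apart. With 3 against 3 libraries the smallest exact two-sided p is 0.10, so no p is given for a pair. On expected counts with no correction for length, Atg16l1 was above Atg16l2, at 0.14 on the log2 scale, which turns that order around.

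**Figure D2:**
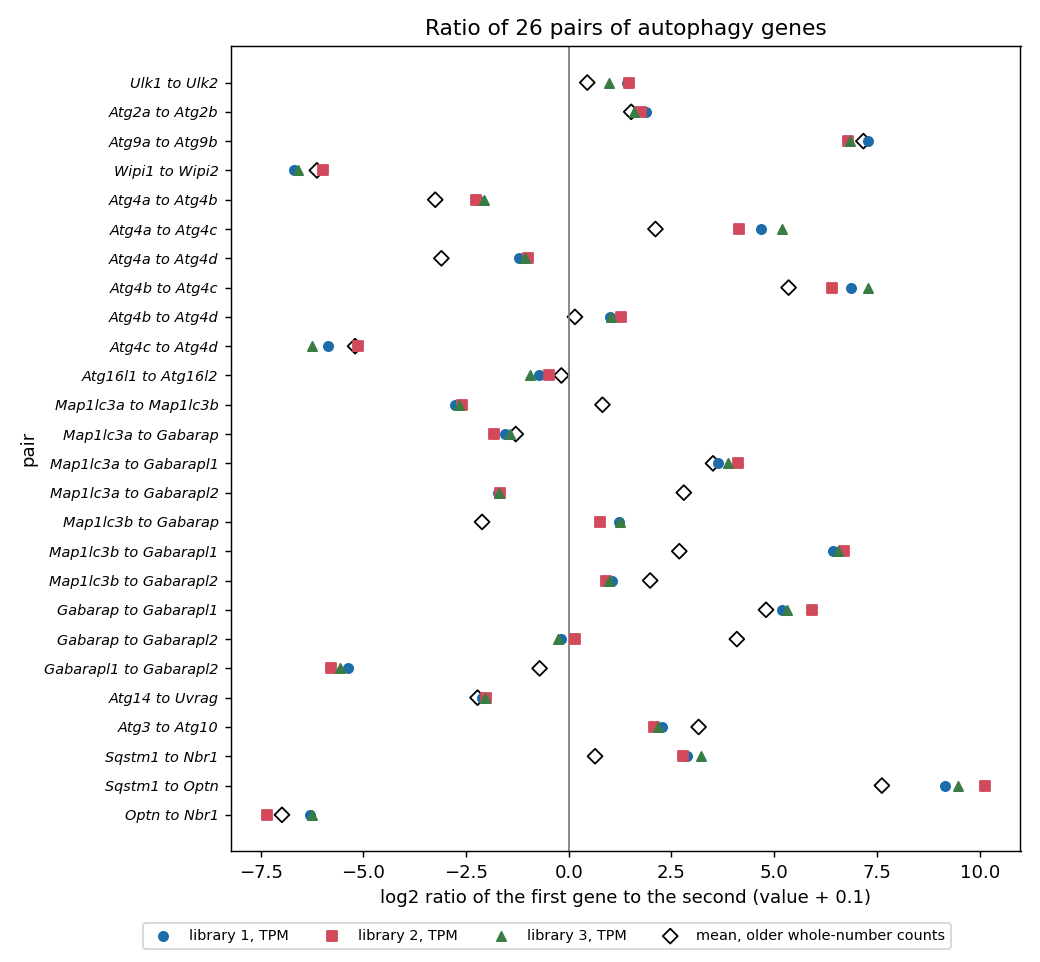
Log2 ratio of TPM + 0.1 for 26 pairs of autophagy genes in each library, with the mean ratio on the older whole-number counts (diamonds, scaled to library totals with no length correction). The 3 libraries lie close together for most pairs and spread most for pairs with Optn or Atg4c. The diamonds fall on the other side of 0 for 4 pairs of the ATG8 family.

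Levels and pair ratios depended on which deposited table was read. A second table per library gives whole-number counts on the older GENCODE M4 annotation. Summed over libraries it held 377 counts for Map1lc3b, which is 2.01% of its 18743.3 expected counts, and 94 for Gabarapl2, which is 1.5% of its 6248.2. Over the 8508 protein-coding genes whose expected counts averaged 100 or more the median was 50.9%, and 3.63% of them were under 5%, as were these 2 members. The median over members was 56.1%. Other members far below it were Atg12 at 11.3%, Atg4a at 16.1%, Sqstm1 at 20.1%, Gabarapl1 at 23.5% and Gabarap at 30.4%. On the older counts the log2 ratio of Map1lc3a to Map1lc3b was 0.82 instead of -2.68, that of Map1lc3b to Gabarap -2.11 instead of 1.08, that of Map1lc3a to Gabarapl2 2.80 instead of -1.70 and that of Gabarap to Gabarapl2 4.09 instead of -0.10. The order of the ATG8 genes given above therefore holds for TPM and not for these counts. Pairs outside the family kept their direction. Of these, 4 stayed within 1 SD: Atg9a to Atg9b, Wipi1 to Wipi2, Atg4c to Atg4d and Optn to Nbr1. Others moved. The log2 ratio of Atg4b to Atg4d was 0.15 instead of 1.10, that of Atg4a to Atg4c 2.11 instead of 4.67, that of Atg4a to Atg4d -3.10 instead of -1.08 and that of Ulk1 to Ulk2 0.45 instead of 1.29. The older counts carry no length correction.

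Sequence shared with other genes was measured beside this. Words of 50 bases, just above the difference of 49 between length and effective length in the tables, were compared between the M21 transcripts of each member and those of all other genes, and each transcript was weighted by its counts. Of the words of Map1lc3b 20% also occurred elsewhere, among them in 9 pseudogenes, led by Gm6055. Of those of Gabarapl2 27.3% did, in 4 pseudogenes led by Gm3724. The pseudogenes that share words were at 41.4 TPM in sum for Map1lc3b and at 3.92 TPM for Gabarapl2. For Atg4a the share was 59.1%, nearly all of it with Atg4a-ps at 1.80 TPM, and for Rb1cc1 it was 13.9%, with Gm13961 at 0.117 TPM. For Atg12, Sqstm1, Gabarap and Gabarapl1, which were also low in the older counts, it was 0.443% or 0. None of the members shared a 50-base word with a paralog compared here. The part of shared sequence in the low older counts was not tested, and how the authors' tool divided reads between these copies and Map1lc3b, Gabarapl2 or Atg4a leaves those levels uncertain.

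**Figure D3:**
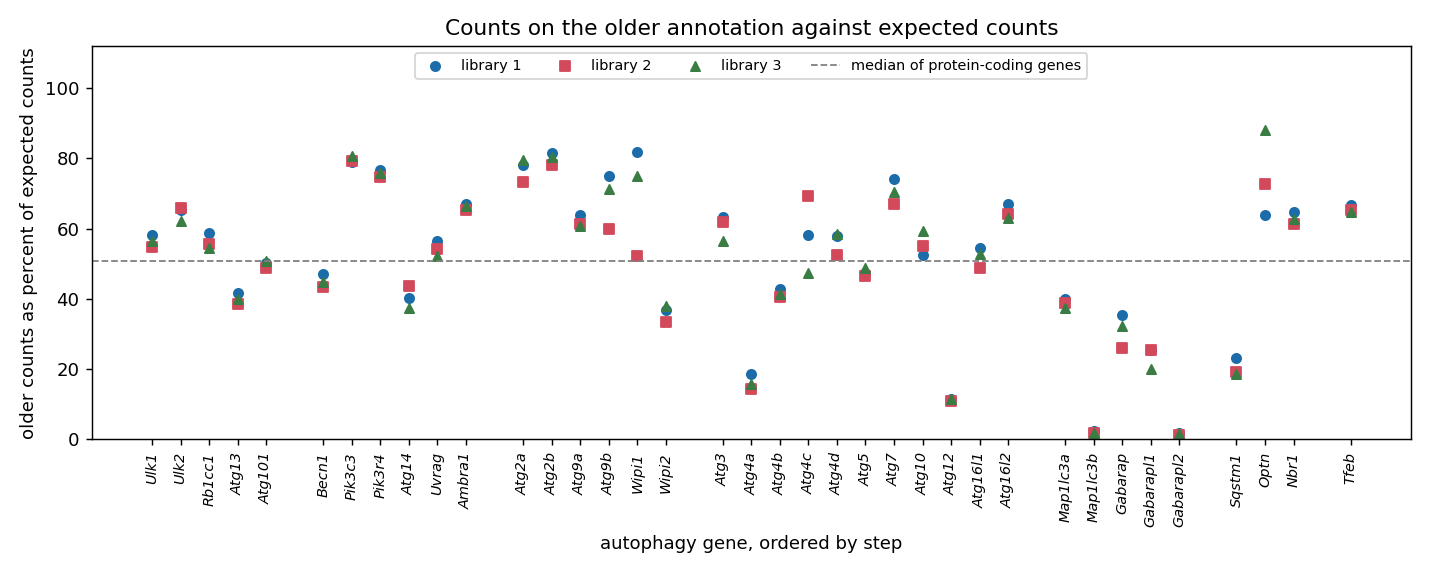
Older whole-number counts as a percent of expected counts for each of the 37 genes in each library, with the median of 8508 protein-coding genes (50.9%, dashed). Map1lc3b and Gabarapl2 lie near 0 in all 3 libraries, and Atg12, Atg4a and Sqstm1 lie at or under 23.1%.

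A large part of the signal of several genes was assigned to transcripts that are not annotated as coding. Over the 33 detected members the median share of a gene's TPM in coding transcripts was 64.9%, beside 84.0% over all detected protein-coding genes, and 9 members were under 50%, as were 17.5% of those genes. By expected counts, which weight long transcripts more, the medians were 84.1% and 92.4%, and 7 members were under 50% beside 10.8%. The most abundant transcript was not coding for 7 of the 33 members, beside 14.6% of detected protein-coding genes. It was the same transcript in all libraries for 31 of the 37.

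Atg4d had the lowest share of TPM in coding transcripts, 9.34 ± 1.66% (SD, n = 3), and Becn1 the lowest by counts. Becn1-201, annotated as a target of nonsense-mediated decay, took 41.4, 42.8 and 43.6% of its TPM, and coding transcripts took 11.3 ± 4.89% (SD, n = 3), or 5.52% by counts. For Gabarapl2, the retained-intron transcript Gabarapl2-203, with a length of 749 bases, took 73.1, 77.9 and 73.8%, and the coding Gabarapl2-201 took 26.7, 21.4 and 25.1%. For Map1lc3a, the non-coding Map1lc3a-203 took 55.6, 52.1 and 48.4% and the coding Map1lc3a-201 17.9, 18.5 and 28.5%. The other members of this kind were Uvrag (retained intron, 39.0%), Atg4d (retained intron, 48.4%), Atg4b (nonsense-mediated decay, 22.8%) and Atg10 (nonsense-mediated decay, 46.9%), each with the mean share of its leading transcript. For Atg10 the order changed between libraries. Atg10-203 took 56.8, 39.6 and 44.4% and the coding Atg10-201 took 33.1, 41.8 and 34.2%, so the coding one led in library 2. By contrast Atg3-201 took 99.0%, Atg5-201 98.5%, Atg101-201 94.3% and Atg13-202 92.4% of their genes, all coding.

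Within Gabarap, the isoform with the other end printed above led: Gabarap-202 took 52.1, 52.9 and 52.4%, the retained-intron Gabarap-204 35.1, 33.6 and 35.6%, and Gabarap-201, which has the common end, 12.4, 13.1 and 11%. The gene level of Gabarap is thus mostly not the transcript whose coding end matches its paralogs, at 26 TPM for Gabarap-201. Map1lc3b divided among Map1lc3b-203 (24.1, 35.6 and 38.9%), Map1lc3b-205 (40.1, 29.3 and 23.4%) and Map1lc3b-201 (29.5, 26.3 and 31.2%), and its leading transcript changed between libraries. These transcripts end in the same coding bases but are annotated with 66, 160 and 125 codons. The gene level of Map1lc3b is thus not that of 1 coding sequence, and Map1lc3b-201, the form printed above, was at 130 TPM in the mean. Transcript shares are estimates from short reads. Antisense neighbours overlapped the exons of some of these genes, and whether counting used strand is not given in the sources used here: Cntd1 covered 43.9% of the Becn1 exons but stood at 0.223 TPM, and Kri1 covered 19.3% of the Atg4d exons at 30.8 TPM. Mrnip covered 17.3% of those of Sqstm1 at 2.04 TPM.

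**Figure D4:**
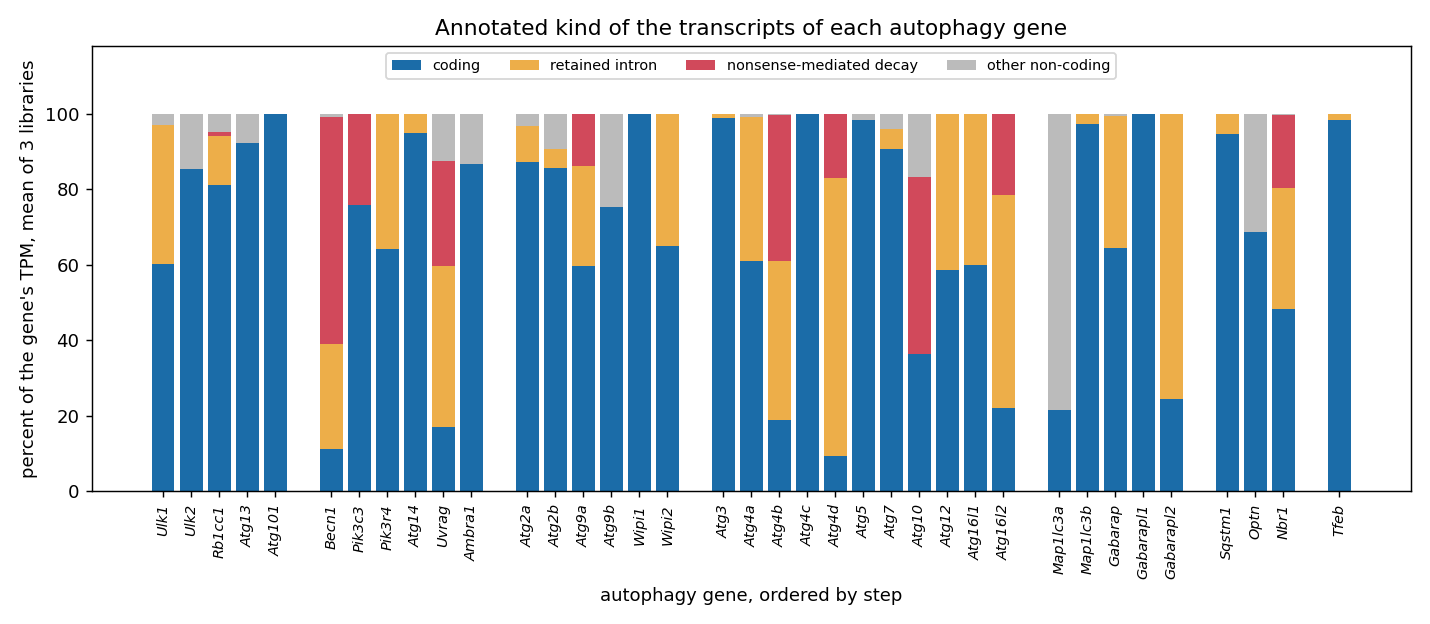
Percent of each gene's TPM in coding, retained-intron, nonsense-mediated decay and other non-coding transcripts, as the mean of 3 libraries, genes ordered by step. Becn1, Uvrag, Atg4b, Atg4d, Atg10, Atg16l2, Map1lc3a, Gabarapl2 and Nbr1 have under 50% in coding transcripts.

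The technical libraries differed from each other for part of the members. Counts scaled to a common library size (TMM) were compared per gene by a chi-square test of homogeneity with Benjamini-Hochberg adjustment over all genes at a threshold of 0.05. The test asks whether libraries of the same cells differ by more than counting noise, and not whether any condition does. It called 18 of 36 members tested, beside 40.0% of 13090 genes; Atg9b was below the minimum of a mean of 10 counts. At an average of 100 or more scaled counts it called 17 of 32 members, beside 49.7% of such genes, so the share of members called was near that of genes of like depth. The median ratio of the highest to the lowest library was 1.10 for these members and 1.15 for all such genes. Of the 36 members tested, 2, 7 and 9 were called and highest in libraries 1, 2 and 3, beside 7.56%, 18.2% and 14.3% of the 13090 genes tested. Of the same 36 members, 3, 9 and 6 were called and lowest in libraries 1, 2 and 3, beside 7.02%, 17.4% and 15.6% of genes tested. These shares were not matched for depth: the median scaled count was 1302.8 for members tested and 382 for all genes tested.

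The largest differences among well-counted members were in Ulk1 and Atg2a. Scaled counts of Ulk1 were 1902.8, 2438.0 and 1342.2, high in library 2 and low in library 3, a ratio of 1.82 (adjusted p = 1.33e-71, chi-square homogeneity with Benjamini-Hochberg adjustment). Atg2a had a ratio of 1.65, Atg2b of 1.47 and Ambra1 of 1.33, also with library 2 highest and library 3 lowest. Gabarap had a ratio of 1.42 with the same order, but on the older counts the ratio was 1.16 and the call was lost (adjusted p = 0.147, same test). Tfeb went the other way, highest in library 3 and lowest in library 2, with a ratio of 1.29, and so did Atg3 with 1.26. Optn had a ratio of 2.72 on its 53 counts (adjusted p = 0.0325, same test), a call that was lost with no count minimum (0.0768), on the older counts (0.351) and without library 1 (0.386) or library 2 (0.261). Those that varied least were Atg13 at 1.00, Map1lc3b at 1.02 and Atg14, Atg12 and Atg16l1 at 1.04. Without library 2, which stood apart in ribosomal RNA, 8 of 36 members tested were called, beside 14.7% of genes: Ulk1, Atg2a, Atg2b, Ambra1, Rb1cc1, Uvrag, Sqstm1 and Tfeb. Ulk1 and Atg2a then each had a ratio of 1.42 between libraries 1 and 3, while Gabarap had 1.03 and Atg3 1.05 and neither was called. The call of Tfeb was lost without library 3, where its ratio was 1.01.

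The share of genes called and lowest in library 3 varied with transcript length and with GC content. Among genes averaging 100 or more counts, in the quintile with the longest main transcripts (4021 bases and more) 39.3% were called and lowest in library 3, against 7.88 to 18.1% in the other quintiles. The main transcripts of Ulk1, Ambra1, Atg2a and Atg2b are 5213, 5021, 6371 and 7546 bases long and lie in that quintile. The median log2 ratio of library 3 to library 2 in it was -0.09, while the ratios of these 4 members were -0.86, -0.41, -0.72 and -0.55. Ulk2 (5743 bases) was at -0.28, but Atg12 (4765 bases) at 0.03 and Pik3r4 (4711 bases) at 0.10. Gabarap, at -0.51, has a main transcript of 750 bases. Over quintiles of GC content the share called and lowest in library 3 went from 12.1% in the lowest to 22.3% in the highest (55.9% GC and more). In the highest, 24.8% were called and lowest in library 2. From the lowest to the highest of the GC quintiles the median log2 ratio of library 3 to library 1 went from 0.04 to -0.03. That of library 3 to library 2 was 0.06 and 0.02 in these quintiles. The main transcripts of Ulk1 (58% GC) and Atg2a (60%) lie in the highest GC quintile, as does that of Tfeb (63.2%), which was highest in library 3. Those of Ambra1 (54.4%) and Atg2b (50.3%) lie below it. The other well-counted members in the highest GC quintile were Atg101 (58%), Atg9a (57.5%), Atg4d (59.6%), Atg16l2 (57.5%), Map1lc3a (59.2%) and Map1lc3b (56.1%). None of these was lowest in library 3. The parts of length and GC content in these differences were not tested.

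**Figure D5:**
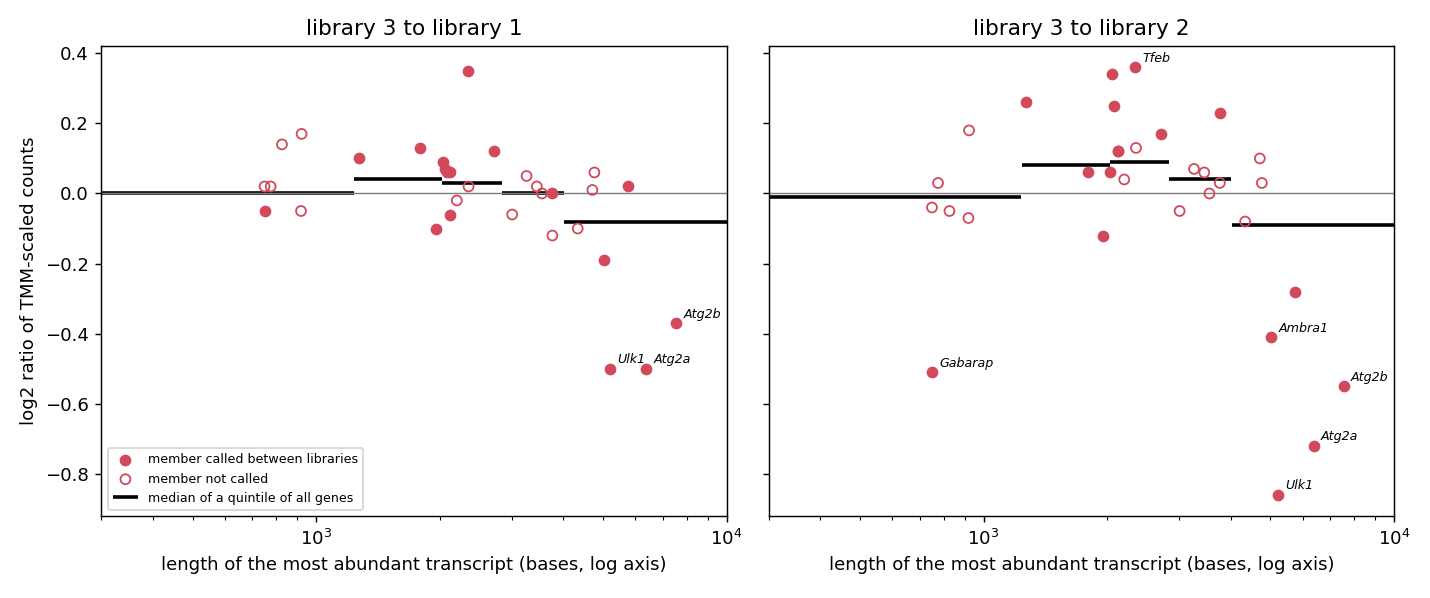
Log2 ratio of TMM-scaled counts of library 3 to library 1 (left) and to library 2 (right) against the length of the most abundant transcript (log axis) for 32 members averaging 100 or more counts, with the median of each quintile of all such genes as a black line. Ulk1, Atg2a, Atg2b and Ambra1 lie lowest against library 1, and with Gabarap they lie lowest against library 2.

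The rest of the pathway was described from lists that the members are not part of. Over these lists 53 of 57 genes were detected, with a median of 55.4 TPM, close to that of the members. All 14 genes for fusion of the autophagosome with the lysosome were detected, with a median of 35.2 TPM. They were led by Vps16, a subunit of the HOPS tethering complex, at 295, 246 and 280 TPM, and Tecpr1, a tethering protein, at 257, 245 and 226 TPM. All 18 lysosome genes were detected at a median of 85.3 TPM, with the proteases Ctsd at 205, 201 and 220 TPM and Ctsb at 171, 138 and 188 TPM highest. Of 14 other receptors of selective autophagy 13 were detected, at a median of 73.2 TPM. Bnip3l (NIX), a receptor in the removal of mitochondria, was at 577, 527 and 630 TPM, below Sqstm1 in every library, and Tax1bp1, a receptor for ubiquitinated cargo, was at 382, 308 and 394 TPM, while Wdfy3 was at 0.0133 TPM in the mean. Of 11 other core and regulatory genes 8 were detected at a median of 37 TPM, led by Wdr45, another WIPI protein, at 122, 138 and 115 TPM, and Vmp1 at 67.5, 61.3 and 71.1 TPM. Rubcnl and Tfec were under 1 TPM in every library. Wdr45 was thus above Wipi2 in every library.

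Promoters were searched for the E-box core bound by TFEB and its relatives. RefSeq promoter windows (GRCm38.p6, 300 bases each, from upstream of a gene's start to just past it) were matched for 31 of the members. The letters CACGTG, which read the same on both strands, occurred in the windows of 4 members (12.9%), Atg3, Atg5, Atg7 and Atg14, beside 8.09% of 27025 genes. The longer TCACGTGA, which contains it, occurred in 1 member, Atg3 (3.23%), beside 1.12%. Windows of 30 bases around the matches of Atg7 and Atg3 are shown on the plus strand, which is the strand of both genes, with the core in capitals. The RefSeq starts used lie inside the M21 genes, which begin at 114643097 for Atg7 and 45158785 for Atg3. The Atg7 match thus lies within the annotated M21 gene, while the Atg3 matches lie upstream of theirs.
Atg7 chr6:114670952-114670981: catattggtggtCACGTGtgcagtaagtga
Atg3 chr16:45158723-45158752: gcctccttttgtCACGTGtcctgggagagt
Atg3 chr16:45158746-45158775: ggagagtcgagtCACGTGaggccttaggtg
The core lies at -132 from the start in Atg7 and at -94 and -71 in Atg3, and the last of these windows holds the longer form. These are matches of letters, and no measurement here bears on binding.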

How the data were processed

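The 3 technical libraries hold polyA-selected RNA. The text deposited with the files names mm10 as assembly and GENCODE M21 as annotation, with M4 for an older table of counts. The aligner, the counter and their use of strand were not given in the sources used here. Per the file headers, the authors deposited expected counts (estimated counts that need not be whole) and TPM, which they scaled over all entries, as maximum-likelihood and posterior mean estimates. Isoform percent per transcript was deposited too. The whole-number counts on M4 carry no header. Entries that name no gene held 0.247%, 0.200% and 0.325% of expected counts and stayed out of library sizes and tests.

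The members and lists were chosen with earlier results of these data known. The text names all 37 members, of each other pathway list the 2 genes of highest mean TPM and each gene under 1 TPM in every library, and of each marker list the 2 highest (some markers are not reported here); Cd4, Cd8a and the neighbours, pseudogenes and isoforms named were added after their values were seen. Expected counts were rounded and compared between libraries, for every gene averaging 10 or more, after TMM scaling in edgeR (4.0.16, under R 4.3.3), by chi-square homogeneity (scipy 1.17.1) with Benjamini-Hochberg adjustment; the procedure was tested on simulated data. Pair ratios used TPM + 0.1, and pooled ratios divide expected counts by effective length with exact Clopper-Pearson 95% intervals. Reads carry no molecular identifiers, so intervals cover counting error only. edgeR's common dispersion gave a technical coefficient of variation of 12.7%, or 7.20% without library 2. Alternatives were posterior mean estimates, rescaled TPM, other minimums and pseudocounts, library totals, DESeq2 1.42.0 size factors, the M4 counts and leaving out each library. The splits by transcript length, the 50-base words and coding shares by counts were chosen after seeing the data. A planned comparison of protein sequences was replaced by coding sequences of GENCODE M21.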

Additional observations from a re-analysis of the deposited data

How the results depend on the processing

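The count of detected members, 33, lay between 32 and 36 under a TPM minimum of 0.5 or 5, posterior mean TPM and TPM rescaled over protein-coding genes, and was 33 without any 1 library. The median member level of 56.8 TPM was 49.6 on posterior mean TPM, 73.8 on TPM rescaled over protein-coding genes without mitochondrially encoded and ribosomal protein genes, and 62.5 over members with a mean of at least 1 TPM; it was 55.1 to 57.3 with 1 library left out. The 18 members that differed between libraries were 20 with library totals, 18 with DESeq2 size factors, 15 with no count minimum, 17 with a minimum of 50 and 12 on M4 counts; with 1 library left out they were 8 to 16, the lowest without library 2. The 25 pairs that did not overlap were 24 to 26 under every alternative run, but pairs changed direction: on M4 counts the log2 ratio was 0.82 for Map1lc3a to Map1lc3b, 2.80 for Map1lc3a to Gabarapl2, -2.11 for Map1lc3b to Gabarap and 4.09 for Gabarap to Gabarapl2, and with no length correction it was 0.14 for Atg16l1 to Atg16l2, whose transcripts differ in effective length. The cause of the turns on M4 counts was not tested. Of 26 pair ratios, 18 others moved by more than 1 SD on M4 counts, 19 with no length correction, 10 with a pseudocount of 1 and 7 on posterior mean TPM. Depth limits Atg9b (16 counts), Wipi1 (46), Optn (53) and Atg4c (82), of which Optn alone was called between libraries. No paired analysis was possible because the libraries form 1 group.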
